A study of Mus musculus with 8 samples.

Results

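The genes described here are the mouse Zbtb and Zhx genes, most of which encode zinc finger repressors. They were taken by name alone: every gene of the deposited count table whose GENCODE M21 symbol is Zbtb followed by a number, or is Zhx1, Zhx2 or Zhx3. This gave 44 genes of the 35852 in the table, 41 Zbtb symbols and 3 Zhx symbols. One of them does not answer to the description: Zbtb8os is named for its position on the strand opposite Zbtb8a and encodes archease, a cofactor of the tRNA ligase in human cells. The cells were bEnd3, an immortalised line from mouse brain endothelium, so all libraries come from a single line. The 4 treated libraries came from cells given 5 µM corticosterone, the main glucocorticoid of mice, for 24 h (CORT). The 4 others came from cells in culture medium (medium). Titles and the treatment field separate the groups, but corticosterone also stands in the treatment protocol of the medium libraries, and no label gives a vehicle. Nothing in the labels ties a replicate to its own culture, and a p-value here measures the spread among these libraries, which may be technical.

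A Zbtb protein pairs an N-terminal BTB domain, through which it dimerises and recruits corepressors such as NCoR and BCOR with their histone deacetylases, with C-terminal zinc fingers that read DNA. The family is best known for fate decisions in blood and germ cells, and several of its members bind methylated CpG. The Zhx proteins carry zinc fingers and homeodomains, form homo- and heterodimers with each other, and bind the A subunit of the CCAAT factor NF-Y. Corticosterone acts through the glucocorticoid receptor, a ligand-activated transcription factor of endothelial cells.

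The libraries held 19.7 to 46.2 M estimated counts (M, 1e+06). Genes that glucocorticoids are known to induce, among them Fkbp5 and Tsc22d3, were higher in CORT for all 8 tested. Of the 11 endothelial markers, all tested, 6 were higher and 4 lower. Their summed level was 8990 to 9279 counts per 1e+06 (CPM, with library sizes scaled by TMM) in CORT and 8291 to 8845 CPM in medium. Vwf changed the most of the 11 and was lower, at 112.6 ± 10.0 CPM in CORT and 267.3 ± 31.5 CPM in medium. Markers of other cells were scarce beside the endothelial ones. The summed fibroblast markers were 5.74 to 6.69 CPM in CORT and 19.9 to 21.9 CPM in medium, with 2 of 5 tested, both lower. Pdgfra held most of this sum, at 4.87 ± 0.120 CPM in CORT and 18.4 ± 1.00 CPM in medium, while Dcn and Lum were close to 0. Pericyte and smooth muscle markers summed to 6.69 to 9.04 CPM in CORT and 8.99 to 10.03 CPM in medium (5 of 9 tested, 2 lower, Kcnj8 close to 0), leukocyte markers to 16.8 to 18.4 CPM in CORT and 16.9 to 18.96 CPM in medium (only Cd68 tested, not called), and neural markers to 0.665 to 0.975 CPM in CORT and 0.279 to 0.603 CPM in medium (only Gfap tested, not called), with Aqp4, Olig2 and Syt1 at 0. The part of these shifts in the results below was not tested. CORT replicates 1 and 2 stand apart in how they were quantified: their kallisto effective length is the transcript length plus 1 in 100% of transcripts of 1000 nt or more, against 0% in the other 6 libraries. Gene counts are compared in all 8 libraries and again without these 2, and levels per length are given for the other 6 alone.

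Of the 42 tested members, 11 were higher and 6 lower in CORT than in medium, and the changes ran over a wide range of sizes. Zbtb16, with no count in any medium library, changed the most, and Zhx3 followed at 3.40-fold. Below them came Zbtb7c, Zbtb46, Zbtb38 and Zhx1 at 1.27-fold to 1.55-fold, while the 6 lower members fell by less than any of these rose. The 17 called members are 40.5% of those tested, and 40.1% of all 13272 tested genes were called (edgeR quasi-likelihood test, Benjamini-Hochberg adjusted p under 0.05 over all genes tested; 19.5% higher and 20.6% lower). The share of called members was thus near that of all genes. The member counts include Zbtb16, which entered the fit through CORT alone. The balance of directions depended on the scaling: with library size alone, 9 members were higher and 8 lower, and of all genes 2191 were higher and 3365 lower, against 2590 higher and 2737 lower with TMM. The median log2 fold change, CORT over medium, was 0.0025 over the members and -0.0046 over all tested genes. The size of the Zbtb16 fold does not move the member median, since that fold is highest at any bound. Leaving Zbtb16 out does move it, as the middle member is then Zbtb39 at -0.0021. Zbtb16 and Zhx3 were the 2 called members that differed at least 2-fold, and 3.75% of all tested genes were called at that size. CPM did not overlap between groups for 15 members (35.7%), all of them called, and for 39.9% of all tested genes. In bulk RNA, a change in the RNA per cell and a change in the share of cells that carry it cannot be told apart. Without CORT replicates 1 and 2, 11 members were higher and 5 lower, against 36.4% of 13639 genes called (18.4% higher and 18.0% lower). Zbtb20 and Zbtb9 lost their call in that fit, and Zbtb25 was called higher. There the log2 fold change was 1.75 for Zhx3, 0.75 for Zbtb7c, 0.62 for Zbtb46, 0.43 for Zbtb38 and 0.34 for Zhx1, all called. In the same 6 libraries, limma-trend on log2(TPM + 0.5) called 6 members higher, these 5 and Zbtb16, and 1 lower, Zbtb4. Of all 13272 tested genes, that fit called 21.5%. Zbtb32 and Zbtb8b did not pass the filter on low counts. Zbtb32, a repressor of activated lymphocytes, had 2, 3, 4 and 8 counts in CORT and 4, 5, 3 and 6 in medium, and Zbtb8b had 0, 1, 4 and 0 in CORT and 2, 2, 3 and 0 in medium.

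**Figure D1:**
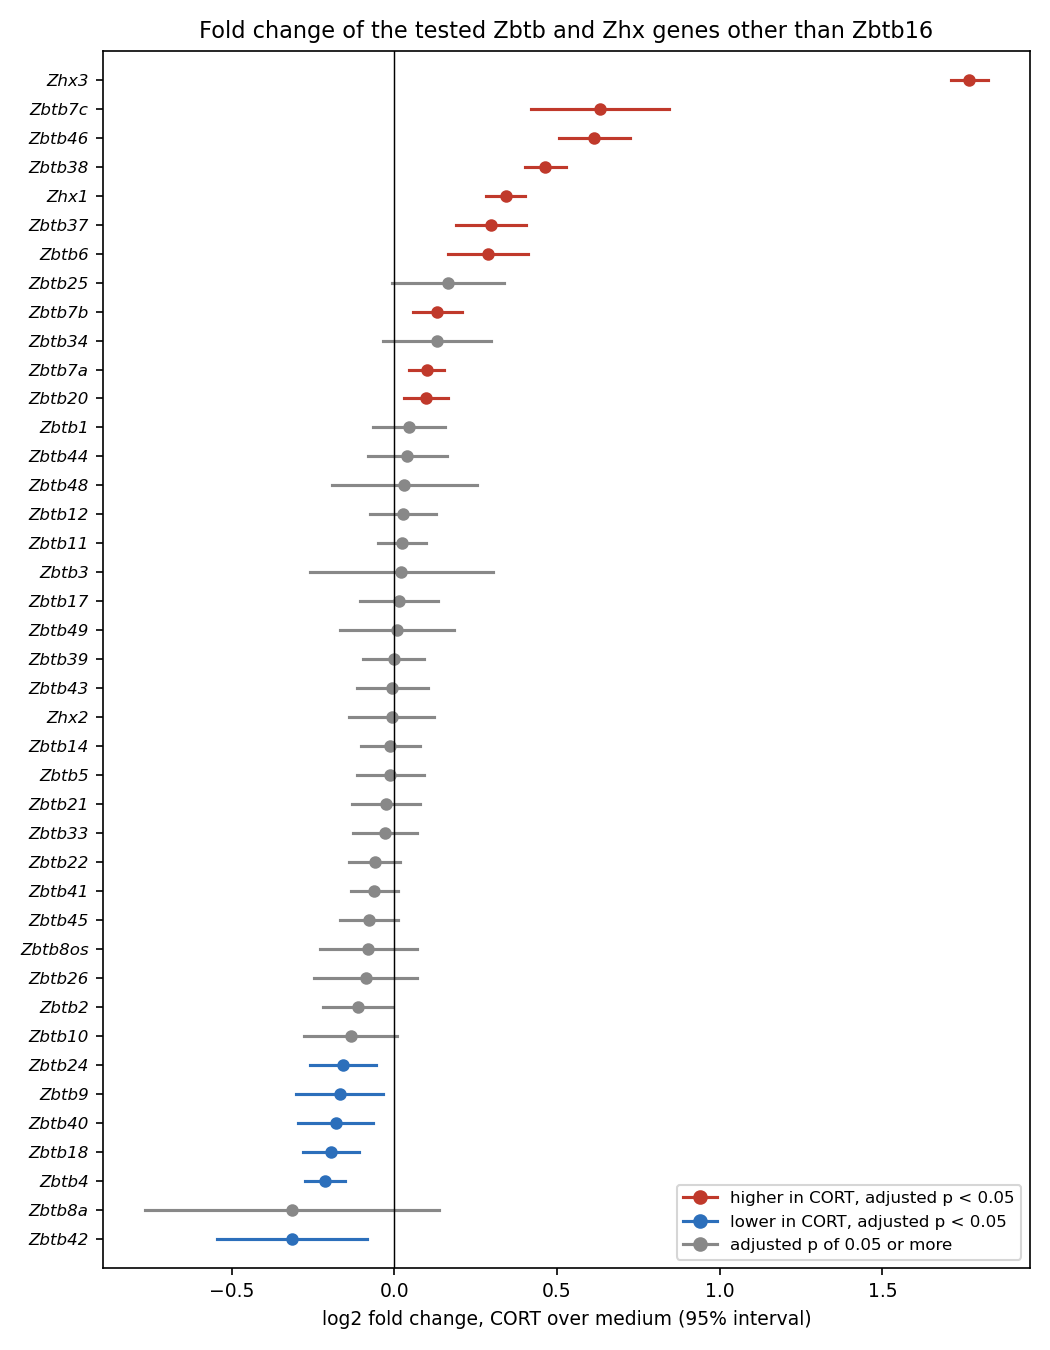
log2 fold change of CORT over medium (x axis) for the 41 tested Zbtb and Zhx genes other than Zbtb16, with 95% intervals from 4 libraries a group. Zhx3 stands alone at 1.77; red marks genes higher and blue genes lower in CORT at an adjusted p under 0.05, and most grey intervals lie between -0.5 and 0.5.

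Zbtb16 encodes PLZF, which maintains spermatogonial stem cells, directs the development of natural killer T cells, and is induced by glucocorticoids and progestins in human endometrial stroma. The gene lies at chr9:48654297-48836222 on the minus strand (GRCm38), and 99.8% of its 31-mers occur in no other annotated gene. It had 141, 107, 175 and 158 estimated counts in CORT replicates 1 to 4, and 0 in each medium library. The groups are therefore separated by detection itself, although the CORT level was low, at 4.46, 3.95, 5.31 and 5.71 CPM. Against a floor of 3 counts over the medium group, the pooled level was at least 199.6-fold higher in CORT (581 counts in CORT and 0 in medium). It passed the filter on low counts through its CORT libraries alone, so no p-value is given for it. Its direction was fixed by this, and its place in the counts of called, higher and non-overlapping members is no support. The floor covers counting error only, since amplified reads that carry no molecular identifier are not independent. Of its 2 annotated transcripts, Zbtb16-201 took 81.8% to 92.2% of the counts in the CORT libraries and Zbtb16-202 the rest. Per length, Zbtb16 reached 1.75 and 1.71 TPM (transcripts per 1e+06 transcripts) in CORT replicates 3 and 4, against 0 in medium, which placed it at rank 41 of the 44 members in CORT and last in medium.

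The Zhx genes split. Zhx3 rose the most of the members that medium cells also contain, Zhx1 rose 1.27-fold, and Zhx2 was not called. Zhx3 is annotated on the minus strand of chr2:160748708-160872998. Its level was 154.1, 153.3, 148.9 and 151.3 CPM in CORT and 44.5, 44.7, 43.4 and 45.9 CPM in medium. Every CORT library was above every medium library, with a spread within groups far below the distance between them. The means were 151.9 ± 2.31 CPM in CORT and 44.6 ± 1.04 CPM in medium (SD, n = 4 each), a log2 fold change of 1.77 ± 0.03 (SE), or 3.40-fold (edgeR adjusted p = 1.32e-13). Its 3 main transcripts each lay above their medium range. In CORT replicates 3 and 4, Zhx3-202 had 76.2 and 66.9 counts per 1e+06, against 11.1 to 23.8 in medium, and Zhx3-203 had 44.3 and 45.8, against 14.3 to 17.3 in medium. Zhx3-201 had 23.8 and 35.2 counts per 1e+06 in these libraries and 4.22 to 13.7 in medium. These 3 transcripts begin at 3 different annotated sites, at 160859631 for Zhx3-202, 160872990 for Zhx3-203 and 160872572 for Zhx3-201. An exon stretch of 379 nt, 2.86% of the Zhx3 exons, lies opposite Plcg1, which was itself higher in CORT (364.6 ± 9.70 CPM in CORT and 288.0 ± 7.82 CPM in medium; adjusted p = 7.58e-07, edgeR), and the strand setting of the quantification is not given in the sources used here.

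Zhx1 had 67.2, 69.4, 68.8 and 66.03 CPM in CORT and 53.4, 52.8, 55.0 and 53.0 CPM in medium. The groups did not overlap (67.9 ± 1.51 CPM in CORT and 53.5 ± 0.988 CPM in medium, SD, n = 4; 1.27-fold, edgeR adjusted p = 6.69e-07). Its main transcript Zhx1-201 carried 80.3% to 84.4% of the counts in CORT and 76.7% to 79.3% in medium. The CORT range includes replicates 1 and 2, which were quantified otherwise. Their Zhx1 split lay 12.7 and 10.1 percentage points from that of the other libraries, against 2.13 to 5.07 elsewhere. The shares are not read as a change in transcript use. Zhx2, known in mice as the repressor that silences Afp in the liver after birth, had 12.1, 11.7, 12.5 and 11.0 CPM in CORT and 12.4, 12.4, 11.2 and 11.6 CPM in medium. Its groups overlapped and the log2 fold change was -0.01, with a 95% interval of -0.14 to 0.12. Zhx1 and Zhx2 are both annotated on chromosome 15, on opposite strands. Differences between the 3 responses were not tested.

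Promoter windows show the sequence at annotated starts of these genes, whether or not a start carries counts here. RefSeq on GRCm38.p6 gave windows of 250 bases before to 50 after an annotated start for 37 members, 50 windows in all, and none for Zbtb7c, Zbtb10, Zbtb16, Zbtb40, Zbtb48, Zhx1 and Zhx2. Shown are 3 called members whose window sits at a start that carries counts here: Zhx3, the strongest rise with a window, Zbtb6, a smaller rise, and Zbtb4, the lower member with the smallest p. They were chosen after their values were seen. Capitals mark CpG dinucleotides, the base pair step that the methyl-CpG binding members of the family read when methylated. The Zhx3 window is the minus strand of chr2:160872941-160873240, with 35 CpG, at the start of Zhx3-203. The Zbtb6 window is the minus strand of chr2:37430870-37431169, with 19 CpG, at the start of Zbtb6-201. The Zbtb4 window is the plus strand of chr11:69765662-69765961, with 22 CpG, at the start of Zbtb4-202 and Zbtb4-203. Transcripts starting at the Zhx3 window carried 31.4% to 42.7% of that gene's counts, and Zhx3-202 and Zhx3-201 start elsewhere. The shares were 61.2% to 97.3% at the Zbtb6 window and 86.6% to 99.9% at the Zbtb4 window.
Zhx3: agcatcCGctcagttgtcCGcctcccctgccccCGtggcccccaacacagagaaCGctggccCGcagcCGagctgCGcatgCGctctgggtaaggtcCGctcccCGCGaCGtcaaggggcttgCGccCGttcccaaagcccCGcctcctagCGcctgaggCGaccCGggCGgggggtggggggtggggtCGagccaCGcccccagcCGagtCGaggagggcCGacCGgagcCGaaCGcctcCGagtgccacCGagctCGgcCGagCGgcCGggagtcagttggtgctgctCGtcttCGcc
Zbtb6: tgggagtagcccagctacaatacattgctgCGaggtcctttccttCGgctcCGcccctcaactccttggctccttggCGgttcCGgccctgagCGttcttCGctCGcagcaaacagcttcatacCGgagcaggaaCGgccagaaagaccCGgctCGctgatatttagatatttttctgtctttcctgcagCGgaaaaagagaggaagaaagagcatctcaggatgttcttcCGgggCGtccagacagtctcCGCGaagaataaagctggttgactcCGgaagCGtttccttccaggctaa
Zbtb4: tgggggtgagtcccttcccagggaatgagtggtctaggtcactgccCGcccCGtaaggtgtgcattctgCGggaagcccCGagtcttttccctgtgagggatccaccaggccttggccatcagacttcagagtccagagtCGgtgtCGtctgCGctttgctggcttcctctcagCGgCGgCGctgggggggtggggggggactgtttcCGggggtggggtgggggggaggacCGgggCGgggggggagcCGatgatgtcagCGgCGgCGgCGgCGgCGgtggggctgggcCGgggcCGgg

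The Zhx3 window held 15 CpG in its first 150 bases and 20 in its last 150, and the Zbtb4 window 6 and 16. The median over the 50 member windows was 25 CpG, against 20 over the 12514 windows of all tested genes and 7 over all 32851 windows. The glucocorticoid receptor binds an inverted repeat of hexamers. A loose form of it, GNACANNNTGTNC, and the perfect repeat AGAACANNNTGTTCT were searched on both strands. They were in 0 of 50 member windows, against 0.475% and 0.00913% of all windows and 0.328% and 0.00799% of windows of tested genes. At such rates most sets of 50 windows would hold none, so nothing about the members is read from the 0. The perfect repeat is contained in the loose form. The single hexamer TGTTCT, which the perfect repeat also contains, was in 5 of 50 member windows (10.0%), those of Zbtb5, Zbtb6, Zbtb20, Zbtb33 and Zbtb46, against 19.0% of all windows and 12.7% of windows of tested genes. The transcripts at the Zbtb20 window carried 0% of that gene's counts in every library, and those at the Zbtb46 window 1.66% to 8.29%. A match is a description of these letters only.

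**Figure D2:**
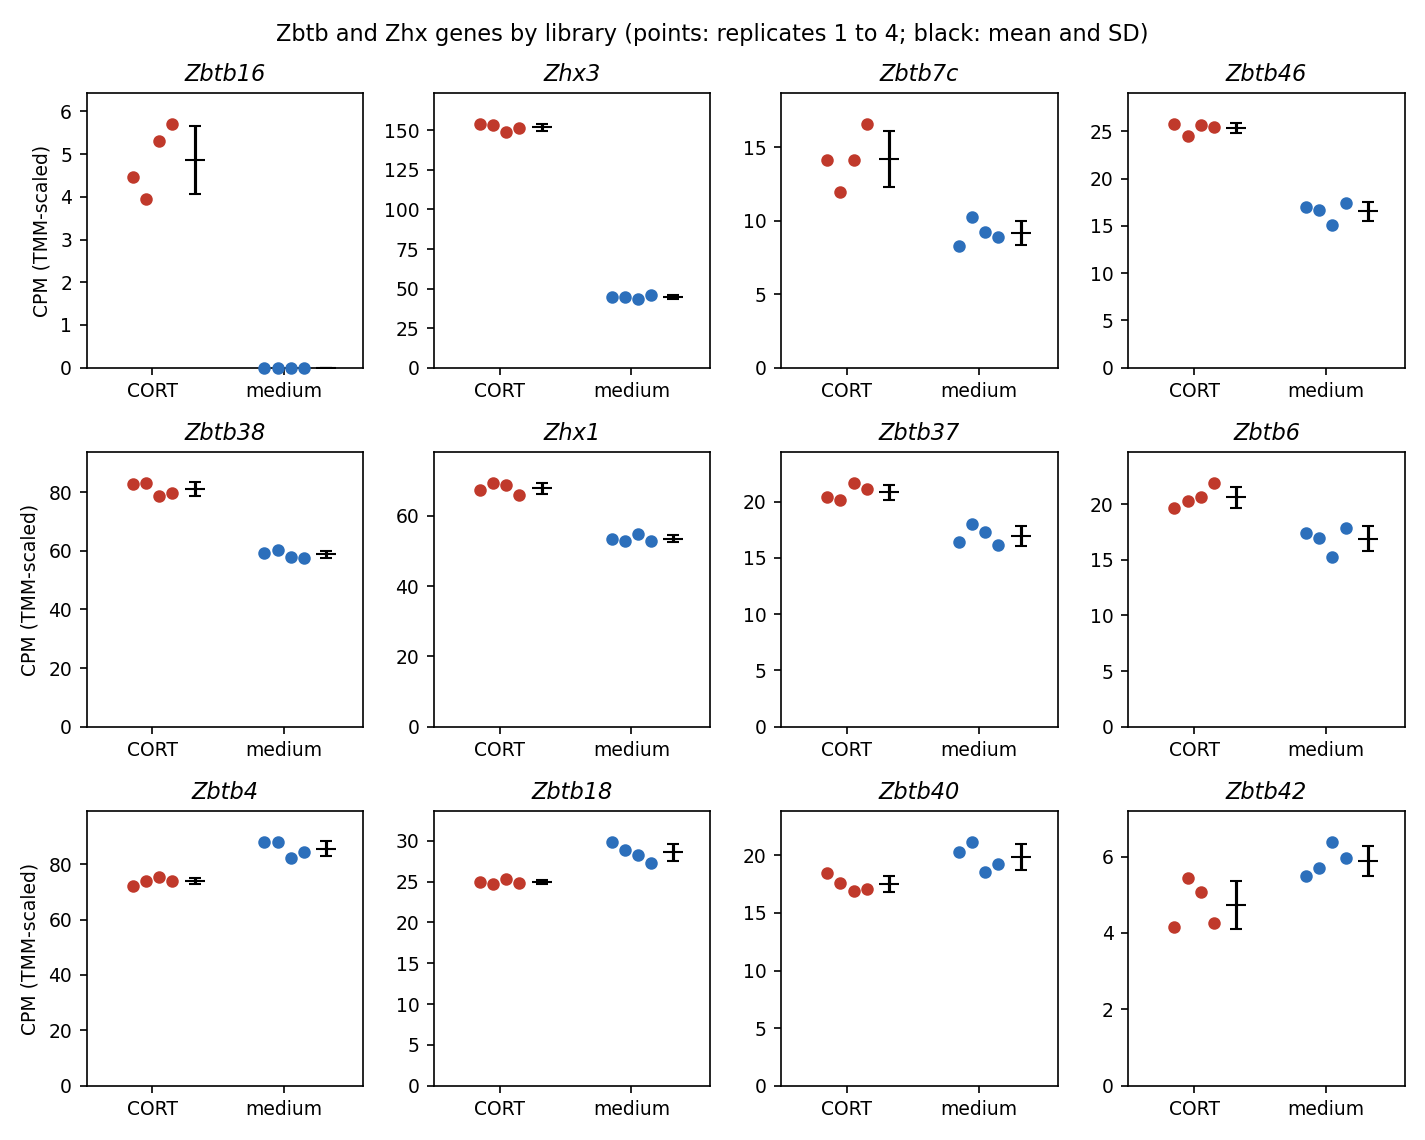
Level of 12 called members in each library (y axis, TMM-scaled CPM, from 0), CORT left and medium right, with replicates 1 to 4 as points and the mean and SD beside them in black. Zbtb16 is at 0 in all medium libraries, and in each of the 12 panels no CORT point lies within the medium range.

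Of the 3 members that bind methylated CpG, one rose, one fell and one was not called, beside 40.1% of all tested genes called. Zbtb38, also called CIBZ, had 82.96, 83.1, 78.6 and 79.6 CPM in CORT and 59.1, 60.4, 57.9 and 57.6 CPM in medium. All CORT libraries were higher (81.1 ± 2.32 CPM in CORT and 58.8 ± 1.29 CPM in medium, SD, n = 4; 1.38-fold, edgeR adjusted p = 6.41e-08). Its main transcript Zbtb38-212 had 60.7 to 66.8 counts per 1e+06 in CORT and 43.1 to 45.8 in medium, also without overlap. Zbtb4 had 72.3, 74.1, 75.3 and 74.1 CPM in CORT and 88.1, 88.0, 82.4 and 84.3 CPM in medium. It was lower in every CORT library and kept 0.863 of the medium level (73.9 ± 1.23 CPM in CORT and 85.7 ± 2.83 CPM in medium; edgeR adjusted p = 6.12e-05). Zbtb33, or Kaiso, had 39.0 to 40.5 CPM in CORT and 38.3 to 44.7 CPM in medium, with a log2 fold change of -0.03 and a 95% interval of -0.13 to 0.07. Among 6 other methyl-CpG genes, with the Kaiso partner Ctnnd1 (p120-catenin) included, 1 was higher, Ctnnd1 (510.3 ± 11.7 CPM in CORT and 485.8 ± 8.75 CPM in medium), and 2 were lower, Mbd3 and Mbd4, and the median log2 fold change was -0.06. Mbd4, a DNA glycosylase, was at 18.5 ± 0.837 CPM in CORT and 23.8 ± 0.956 CPM in medium.

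The 3 members of the Zbtb7 subfamily were each called higher, as were 19.5% of all tested genes, and for Zbtb7a and Zbtb7b the difference was small. Zbtb7c had 14.1, 12.0, 14.1 and 16.6 CPM in CORT and 8.31, 10.3, 9.25 and 8.88 CPM in medium. The lowest CORT library, replicate 2, was still above the highest medium library, replicate 2 (14.2 ± 1.88 CPM in CORT and 9.18 ± 0.824 CPM in medium, SD, n = 4; 1.55-fold, edgeR adjusted p = 0.000242). Zbtb7b encodes ThPOK, which commits thymocytes to the CD4 lineage. It had 41.8, 41.1, 42.5 and 39.4 CPM in CORT and 37.9, 37.2, 36.9 and 38.2 CPM in medium, a 1.10-fold difference without overlap (edgeR adjusted p = 0.00792). Zbtb7a encodes LRF, a silencer of fetal globin in humans and a regulator of B against T cell fate. It had 102.3, 100.9, 105.3 and 103.7 CPM in CORT and 98.4, 96.9, 95.1 and 94.2 CPM in medium, a 1.07-fold difference without overlap (edgeR adjusted p = 0.00623). Scaled by library size alone, Zbtb7a was no longer called (log2 fold change 0.07, adjusted p = 0.0588, edgeR).

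Zbtb46, known as a marker of classical dendritic cells and also made by mouse endothelium, had 25.8, 24.6, 25.7 and 25.5 CPM in CORT and 17.0, 16.7, 15.1 and 17.45 CPM in medium. The CORT libraries lay close together and all above medium (25.4 ± 0.557 CPM in CORT and 16.6 ± 1.00 CPM in medium, SD, n = 4; 1.53-fold, edgeR adjusted p = 7.16e-07). Both of its main transcripts, which share a start, lay above their medium range: Zbtb46-201 had 14.7 to 17.1 counts per 1e+06 in CORT and 8.42 to 9.96 in medium, and Zbtb46-202 had 7.09 to 7.77 in CORT and 5.33 to 6.66 in medium. The pan-leukocyte marker Ptprc was at 0.121 CPM or less in every library. Cd68, the only leukocyte marker tested, was at 17.0 ± 0.806 CPM in CORT and 17.3 ± 0.957 CPM in medium. Zbtb37 averaged 20.8 ± 0.695 CPM in CORT and 17.0 ± 0.864 CPM in medium (1.23-fold, edgeR adjusted p = 0.00038). Of its exon length, 15.6% lies opposite Serpinc1, which had 2.23 ± 0.192 CPM in CORT and 2.52 ± 0.283 CPM in medium. Zbtb6 averaged 20.6 ± 0.941 CPM in CORT and 16.9 ± 1.13 CPM in medium (1.22-fold, edgeR adjusted p = 0.00136). Neither gene overlapped between groups.

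Zbtb20, a repressor of Afp in mouse liver and a regulator of hippocampal development, was, of the 11 higher members, the nearest to the threshold. It had 139.7, 142.2, 131.8 and 144.9 CPM in CORT and 134.2, 129.6, 128.0 and 129.9 CPM in medium. CORT replicate 3 lay below medium replicate 1, so the groups overlapped (139.7 ± 5.68 CPM in CORT and 130.4 ± 2.67 CPM in medium; 1.07-fold, edgeR adjusted p = 0.0231). The call was lost without any one of CORT replicates 2 and 4 and medium replicates 2, 3 and 4 (adjusted p 0.0526 to 0.0609, edgeR), and without CORT replicates 1 and 2 together (0.0818). On the TPM scale in 6 libraries its log2 fold change was -0.02.

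The 6 lower members fell to ratios of 0.805 to 0.896, CORT over medium. Zbtb18, or RP58, a repressor of the developing cerebral cortex, had 25.0, 24.7, 25.3 and 24.9 CPM in CORT and 29.9, 28.8, 28.3 and 27.3 CPM in medium, without overlap (ratio 0.874, edgeR adjusted p = 0.00176). Zbtb42, its close relative, had 4.15, 5.43, 5.07 and 4.26 CPM in CORT and 5.49, 5.71, 6.38 and 5.96 CPM in medium. The highest CORT library was just below the lowest medium library (ratio 0.805, edgeR adjusted p = 0.0327). This call was lost without any one of CORT replicates 1 and 4 and medium replicates 2, 3 and 4 (adjusted p 0.0583 to 0.0942, edgeR), and with DESeq2 (0.0645). Zbtb24, mutated in a form of the human ICF immunodeficiency syndrome, averaged 16.6 ± 0.472 CPM in CORT and 18.6 ± 0.774 CPM in medium (ratio 0.896, edgeR adjusted p = 0.0171); DESeq2 did not call it (adjusted p = 0.0789). Zbtb40 averaged 17.5 ± 0.699 CPM in CORT and 19.8 ± 1.14 CPM in medium (ratio 0.883, edgeR adjusted p = 0.0152), and both genes were without overlap.

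Zbtb9 was called at the edge of the threshold. It had 16.2, 15.6, 15.5 and 15.5 CPM in CORT and 18.3, 17.9, 15.3 and 18.8 CPM in medium (ratio 0.890, edgeR adjusted p = 0.0473). Medium replicate 3 lay below all CORT libraries, so the groups overlapped. The call was lost without any one of CORT replicates 2, 3 and 4 and medium replicates 1, 2 and 4 (adjusted p 0.0790 to 0.139, edgeR). Its counts are also uncertain by sequence: 84.4% of its exon length is shared with Ggnbp1 on the same strand, and 15.7% of its 31-mers occur in no other gene. Ggnbp1 itself had 1.82 ± 0.656 CPM in CORT and 2.02 ± 0.452 CPM in medium.

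The other 25 tested members were not called, with log2 fold changes of -0.31 to 0.17 and adjusted p-values of 0.0883 to 0.982 (edgeR). For 24 of them the 95% interval lay within -0.5 and 0.5; the exception was Zbtb8a, whose 1.01 to 1.59 CPM in CORT and 1.26 to 1.95 CPM in medium gave an interval of -0.76 to 0.14. Zbtb17, or Miz1, through which Myc represses genes such as Cdkn2b, had 15.6 to 17.2 CPM in CORT and 15.5 to 17.4 CPM in medium (log2 fold change 0.02, 95% interval -0.10 to 0.14). Zbtb2, a repressor of CDKN1A in human cells, was nearest the threshold (24.5 ± 0.877 CPM in CORT and 26.5 ± 1.49 CPM in medium; adjusted p = 0.0883, edgeR). Zbtb10, a repressor of SP1 in human cancer cells, had 10.9 ± 0.887 CPM in CORT and 11.9 ± 0.338 CPM in medium (adjusted p = 0.123, edgeR), and it was called lower without CORT replicate 3 (0.0383). Zbtb25 was called higher without CORT replicate 2 (log2 fold change 0.22, edgeR adjusted p = 0.0405), against 0.17 with all libraries. It was also called higher without CORT replicates 1 and 2 together. Zbtb8os had 13.2 ± 1.27 CPM in CORT and 14.0 ± 0.575 CPM in medium (adjusted p = 0.399, edgeR). Zbtb45 averaged 22.2 ± 0.510 CPM in CORT and 23.5 ± 0.720 CPM in medium (adjusted p = 0.157, edgeR). Zbtb41 averaged 41.7 ± 0.947 CPM in CORT and 43.5 ± 1.24 CPM in medium (adjusted p = 0.169, edgeR). Others in this group were Zbtb48, which binds telomeric repeats in human cells (5.57 ± 0.507 CPM in CORT and 5.44 ± 0.564 CPM in medium), and Zbtb1, needed for lymphocyte development (35.8 ± 2.15 CPM in CORT and 34.6 ± 1.72 CPM in medium).

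Of the members that lie within 200000 bases of another member, Zbtb6 was the only one called, beside 40.1% of all tested genes called. With so few such members, they are not read as set apart. Zhx1 and Zhx2 lie just beyond that distance. Zbtb6 and Zbtb26 overlap over 11.0 kb of chromosome 2 on the same strand and share 449 nt of exon, 8.84% of the Zbtb6 exons. Zbtb6 rose, while Zbtb26 had 16.0, 14.9, 13.8 and 14.4 CPM in CORT and 17.4, 14.5, 14.2 and 16.7 CPM in medium, with overlap (adjusted p = 0.374, edgeR). The difference between the pair was not tested. Most Zbtb6 counts, 78.0% to 97.3% in CORT and 61.2% to 86.3% in medium, fell on Zbtb6-201, which starts outside the Zbtb26 locus. The other close neighbours are not called or not tested: Zbtb25 and Zbtb1 lie head to head 663 nt apart on chromosome 12, Zbtb34 and Zbtb43 19.0 kb apart on chromosome 2, and Zbtb8os, Zbtb8a and Zbtb8b in a row on chromosome 4.

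Levels per length place these changes among the members. In medium the highest was Zbtb8os with 54.7 ± 5.11 TPM (SD, n = 4), followed by Zbtb7a with 36.8 ± 1.36, Zbtb18 with 32.4 ± 7.93, Zbtb21 with 27.4 ± 2.55 and Zbtb22 with 25.8 ± 0.704. The ranges of Zbtb7a, Zbtb18 and Zbtb21 each overlap that of the next gene in this order. Zhx3 ranked 19 of 44 in medium with 11.7 ± 1.42 TPM and 2 in CORT, with 43.7 and 37.4 TPM in replicates 3 and 4. Zbtb7c ranked 29 in CORT (5.57 and 6.39 TPM) and 33 in medium (3.97 ± 0.513 TPM). Zbtb8a, Zbtb32 and Zbtb8b closed the list in both groups, together with Zbtb16, at 1.11 ± 0.242 TPM or less in medium.

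**Figure D3:**
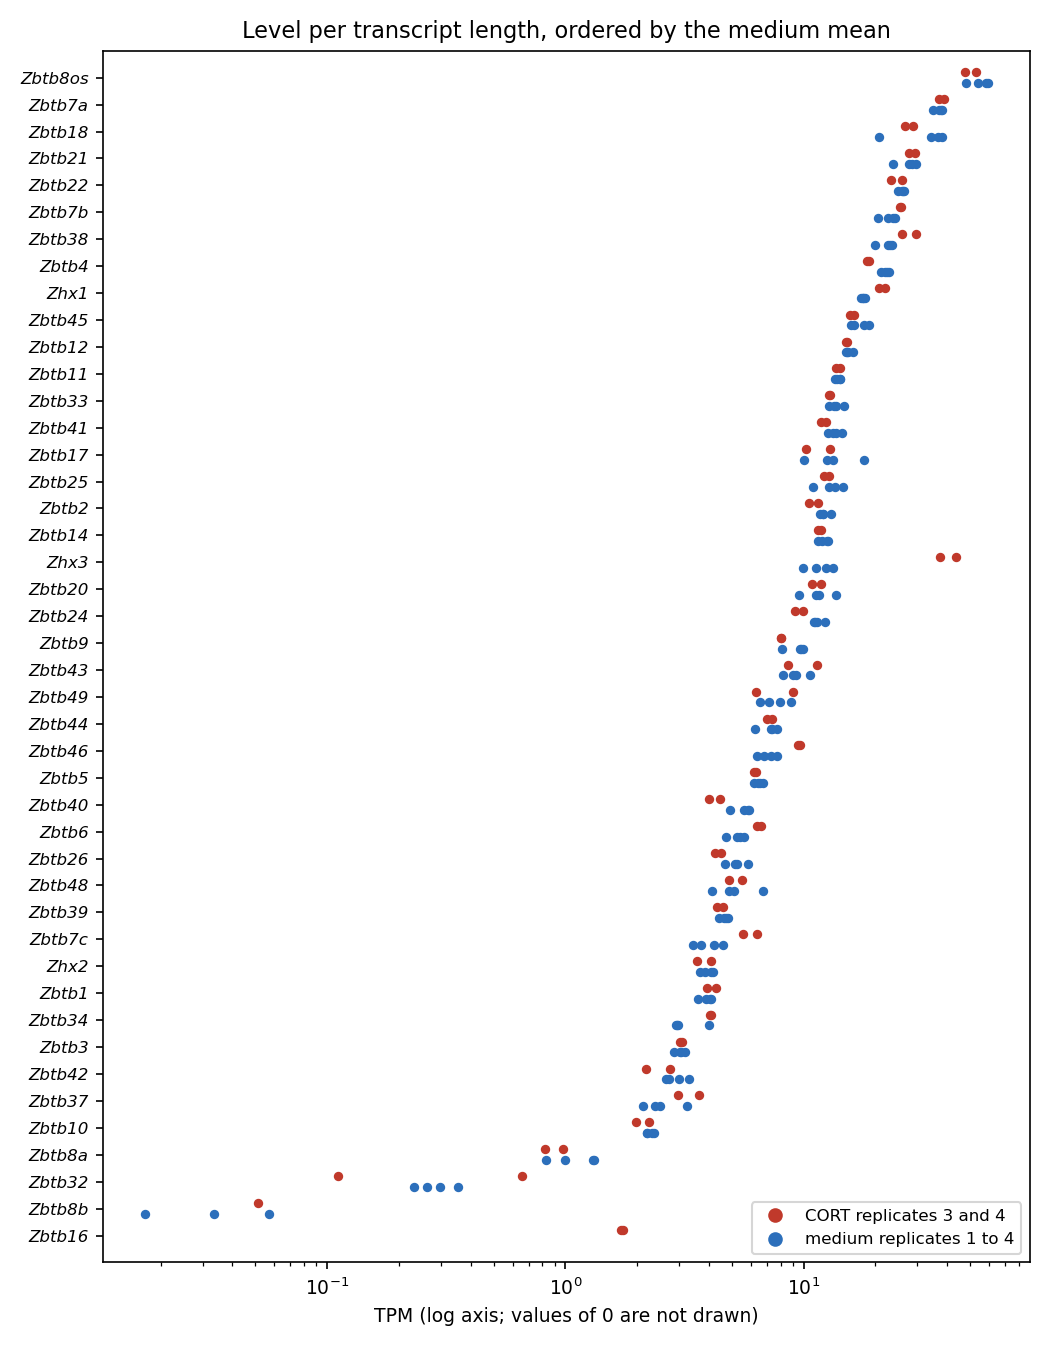
TPM (log axis) of the 44 members, ordered by the medium mean, for CORT replicates 3 and 4 (red) and medium replicates 1 to 4 (blue); values of 0 are not drawn. Zhx3 in CORT stands to the right of its medium points, and Zbtb16 has points in CORT alone, at 1.71 and 1.75 TPM.

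The split of a gene's counts between transcripts was less even across libraries than the gene totals. Over the 35 members with several transcripts and at least 100 counts, the median distance of a library's split from that of the other libraries was 10.9 percentage points in CORT replicate 1 and 5.80 in CORT replicate 2. It was 3.13 to 5.01 in the other 6 libraries. CORT replicate 1 was counted as the farthest library for 20 of the 35 members. That count includes Zhx2, whose split was the same in all libraries, so it has no farthest library. In Zbtb34, transcript Zbtb34-201 held 100% of the counts in CORT replicate 1 and 0% to 11.9% elsewhere. In Zbtb7b, transcript Zbtb7b-201 held 8.58% in CORT replicate 1 and 77.4% to 90.8% elsewhere. The gene totals did not follow: Zbtb34 had 10.5 CPM in CORT replicate 1 and 8.84 to 11.5 CPM elsewhere. These are the libraries with the other kind of effective length, and its part in the split was not tested; no transcript is compared between groups on them alone.

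**Figure D4:**
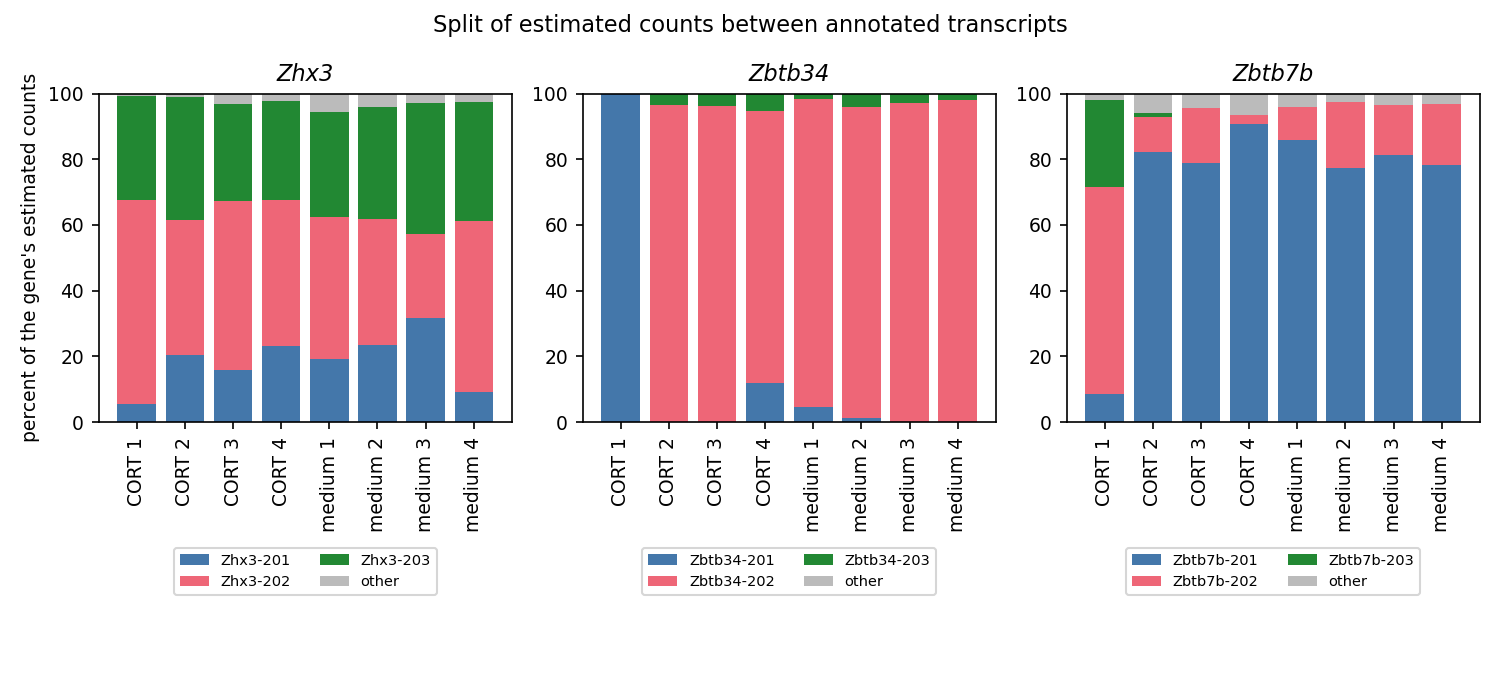
Share of the gene's estimated counts (y axis, percent) given to each annotated transcript of Zhx3, Zbtb34 and Zbtb7b in the 4 CORT libraries (left bars) and the 4 medium libraries (right bars); grey is the sum of all other transcripts. In Zbtb34 and Zbtb7b the bar of CORT replicate 1 differs from the other 7.

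Other genes of the same machinery moved as follows, each in the fit of all genes. Of 8 other BTB zinc finger genes, 2 rose and none fell, and the median log2 fold change was 0.06. Hic1, a growth suppressor, had 32.6 ± 0.852 CPM in CORT and 27.1 ± 1.12 CPM in medium (1.20-fold, edgeR adjusted p = 0.000238), and Bcl6b, a relative of Bcl6 found in endothelium, had 546.4 ± 10.0 CPM in CORT and 506.5 ± 13.2 CPM in medium (1.08-fold, edgeR adjusted p = 0.00377). Bcl6, Hic2, Patz1, Mynn, Gzf1 and Zfp131 were not called. Of 25 corepressors and partners of BTB domains, 1 rose and 11 fell, and the median log2 fold change was -0.08. Hdac5, a class IIa histone deacetylase, rose to 60.4 ± 1.67 CPM in CORT, against 37.3 ± 0.615 CPM in medium (1.62-fold, edgeR adjusted p = 2.59e-09). Hdac7, the class IIa member known for its role in endothelium, fell to 218.1 ± 4.77 CPM in CORT, against 270.2 ± 12.8 CPM in medium (ratio 0.807, edgeR adjusted p = 9.77e-06). Tbl1xr1 and Rbbp4, subunits of the NCoR complex and of deacetylase complexes, were at ratios of 0.804 and 0.863.

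Of 5 partners and relatives of the Zhx proteins, none rose and 3 fell, the NF-Y subunits Nfya, Nfyb and Nfyc, and the median log2 fold change was -0.13. Nfya, whose product Zhx proteins bind, averaged 25.2 ± 0.628 CPM in CORT and 27.5 ± 1.15 CPM in medium (ratio 0.914, edgeR adjusted p = 0.0295). Dnmt3b and Homez were not called. Of 5 partners and targets of Miz1, 3 rose and 1 fell, and the median log2 fold change was 0.17. Myc had 68.95 ± 2.43 CPM in CORT and 48.2 ± 1.76 CPM in medium (1.43-fold, edgeR adjusted p = 1.42e-07), and Max and Cdkn1a were higher too, Cdkn1a 1.14-fold. Cdkn2b, an inhibitor of cyclin-dependent kinases, had 14.8 ± 1.51 CPM in CORT and 26.4 ± 1.74 CPM in medium (ratio 0.561, edgeR adjusted p = 1.86e-06). Against 40.1% of all tested genes, the lists had 3 of 6 (methyl-CpG genes), 2 of 8 (BTB zinc finger genes), 12 of 25 (corepressors), 3 of 5 (Zhx partners) and 4 of 5 (Miz1 partners) called, and with so few genes no list is read as set apart.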

How the data were processed

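RNA was measured in 8 poly(A)-selected, directional libraries of bEnd3 cells, 4 CORT and 4 medium, grouped by title. Per the submitters' processing notes, bcl2fastq, kallisto 0.46.1 and the builds mm10 and GRCm38 were used; no source used here gives the index, strand setting or read length. As deposited by the authors, there is a gene table of estimated counts (not normalized; all 35852 genes had a GENCODE M21 symbol) and, per library, transcript tables of estimated counts, effective lengths and TPM. Per the file headers, TPM are kallisto's abundances, computed from estimated counts and effective lengths. For all 44 members the gene table equalled the summed transcript counts within 0.5 counts.

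Counts were rounded and fitted with edgeR 4.0.16 (R 4.3.3): filterByExpr, TMM, robust quasi-likelihood F test of CORT against medium over all genes, Benjamini-Hochberg adjustment, threshold 0.05. The method was tested on simulated counts with 200 changed genes, far fewer than were called here. It called 40% of genes changed 1.3-fold, 58% changed 1.5-fold, 86% changed 2-fold and 98% changed 4-fold. Of 13072 unchanged genes, it called 13. CPM use TMM-scaled library sizes; a mean ± SD is over 4 libraries, and an SE is the log2 fold change over the square root of F. A fold against a group at 0 counts uses a floor of 3 counts over that group. TPM were summed per gene. Unique sequence was measured as 31-mers of annotated transcripts. Alternatives were RLE scaling, library size alone, no filter, DESeq2 1.42.0, 6 libraries, a term for CORT replicates 1 and 2, a replicate block, each library left out, and limma 3.58.1 (trend) on log2(TPM + 0.5).

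The members and gene lists were chosen with earlier results of these data known, so no list count is independent support. One gene of the corepressor list is not reported here, and the counts of that list leave it out. Named by rule are 26 members: Zbtb16, the Zhx genes and members set by name. To these come members called with an absolute log2 fold change of 0.5 or more and the 10 smallest p in each direction. Zbtb1, Zbtb8a, Zbtb25, Zbtb26, Zbtb34 and Zbtb48 were named after their values were seen. Outside the rule, Zbtb5, Zbtb8b, Zbtb21, Zbtb22 and Zbtb43 are named for their level, position or sequence, or as not tested. Coordinates are GRCm38, counted from 1. No protein sequence is printed.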

Additional observations from a re-analysis of the deposited data

Results flagged for a closer look

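Of 86 sets of 4 values searched, the CPM of each tested member and the library total in each group, 3 held a single library whose gap to the nearest other, over the range of the set, passed Dixon's 95% value; chance flags about 1 in 20. Zbtb9 had 16.18 CPM in CORT replicate 1, against 15.5 to 15.6 CPM in the other CORT libraries. Zbtb17 had 17.45 CPM in medium replicate 2, against 15.5 to 15.6 CPM in the other medium libraries. Zbtb21 had 26.98 CPM in medium replicate 3, against 27.9 to 28.0 CPM in the other medium libraries. Zbtb9 is called lower, and its call without each library is given in the results; Zbtb17 and Zbtb21 are not called.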

How the results depend on the processing

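Over the 16 alternatives, 7 of the 17 called members kept their call and direction in each: Zbtb16, Zhx3, Zbtb38, Zhx1, Zbtb46, Zbtb7c and Zbtb4. For Zbtb16 the direction was fixed by its counts of 0 in medium, so its place here is no support. Zbtb6, Zbtb7b, Zbtb18, Zbtb37 and Zbtb40 lost it in limma on TPM alone, Zbtb7a there and with library size alone, Zbtb24 there and with DESeq2. Zbtb20 and Zbtb42 were called in 7 of 16 alternatives each and Zbtb9 in 3. Zbtb20 reversed once, to -0.016 in limma on TPM. Of members not called, 4 were called in some alternative: Zbtb25, Zbtb10, Zbtb2 and Zbtb41, the last 2 lower with library size alone (adjusted p = 0.0323 and 0.0396, edgeR).

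The 11 higher and 6 lower members became 6 and 1 in limma on TPM, with 1265 genes higher and 1589 lower in all, against 2590 and 2737; that fit has 6 libraries and divides by effective length. DESeq2 called 3 members lower (the cause was not tested). Leaving out 1 library gave 10 to 11 members higher and 4 to 6 lower, 2353 to 2556 genes higher and 2400 to 2591 lower, and a log2 fold change of Zbtb16 of 10.1 to 10.3, a fitted value that is no bound.

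Same-numbered libraries did not deviate together (correlations -0.0374, 0.0302, -0.0527 and -0.0507), so the replicate numbers were not taken as pairs. With the replicate block, 2391 genes were higher and 2522 lower, 11 members were higher and 5 lower (Zbtb9 lost), and the log2 fold change of Zbtb16 was 10.2. Low counts limit Zbtb8a, Zbtb32 and Zbtb8b.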
